A study of Mus musculus with 16 samples.

Results

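The replication-dependent histone genes encode the H1, H2A, H2B, H3 and H4 proteins that package newly copied DNA. They were taken as the protein-coding genes of GENCODE mouse release M21 whose symbol begins with Hist1h, Hist2h, Hist3h or Hist4h and that had at least 80 counts summed over the 16 libraries. The members were thus chosen by their summed count. This rule kept 52 of the 67 annotated coding histone genes, out of 52636 features in the count table. The rule used the summed count and no contrast between groups, so the levels below are a description, whereas the comparisons between groups were tested. Just inside the limit lay Hist3h2ba with 90 counts and Hist1h1t with 138, and just outside it Hist2h2ab with 69 and Hist1h2aa with 54.

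Histone messages of this family are the main messenger RNAs of animal cells that end without a poly(A) tail. Their 3' end is a short stem-loop, bound by the protein SLBP, and is cut after the stem-loop by a complex that holds the U7 small nuclear RNA. Transcription in S phase depends on the coactivator NPAT, and the messages are degraded quickly when DNA synthesis stops. Pluripotent mouse cells divide fast and spend much of their cycle in S phase.

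The study measured total RNA by sequencing in the mouse line CRAFR26, in the state its authors label RSC, which is pluripotent and derived from embryonic stem cells. The line carries a c-RAF kinase construct that 4-hydroxytamoxifen (4OHT) switches on, so that the kinases MEK and ERK are activated below it. Cells of every group had been moved from their usual medium (N2B27 with IWP2, LIF and the MEK inhibitor PD03) to one with the FGF receptor inhibitor PD17 at 250 nM in place of PD03, for 48 h. Group 0h had no 4OHT, groups 2h and 4h had 250 nM 4OHT for 2 h and 4 h, and group rev had 4OHT for 4 h and then a MEK inhibitor for 2 h, at a dose not given in the sources used here. Each group held 4 libraries, 2 from clone 4 and 2 from clone 8 of the line. The labels do not say whether the 2 libraries of a clone came from separate cultures, so p-values measure only the spread between these libraries, which may be technical. Cells given 4OHT without the construct, and cells induced for 6 h without the inhibitor, were not analysed here.

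Library totals ran from 4.31 to 10.4 M counts, of which 8 features, nuclear and mitochondrial ribosomal RNAs among them, took 46.7% to 78.9%. The histone genes took 5421 to 24637 counts per library, and 3 counts were worth 0.21 to 0.908 CPM (counts per M counts of the tested genes, TMM-scaled). Summed over 10 pluripotency markers, levels ran from 1106 to 1798 CPM, and the fibroblast markers together reached at most 3.47 CPM. Neural markers summed to between 36.5 and 65.9 CPM and trophoblast markers to between 28.7 and 74.5 CPM. Primitive endoderm and mesendoderm markers reached at most 9.99 and 9.65 CPM. On the third principal component of the 500 most variable genes, none of which was a histone gene of this set, all 2h and rev libraries lay above 0 and all 0h and 4h libraries below it. The labels name no batch, so this split and the groups cannot be told apart.

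Of the 52 genes, 47 lie in the Hist1 cluster on chromosome 13, 3 in Hist2 on chromosome 3, 1 in Hist3 on chromosome 11 and 1 in Hist4 on chromosome 6. By class they are 6 H1, 11 H2A, 14 H2B, 9 H3 and 12 H4 genes. The sequence that ties them together is the 3' stem-loop, shown here with 5 bases on each side for the genes the results turn on. The sequences are read from GENCODE M21 transcripts, 5' to 3', in DNA letters, and capitals mark the stem-loop.
Hist1h4d: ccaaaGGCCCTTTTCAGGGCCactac
Hist1h4n: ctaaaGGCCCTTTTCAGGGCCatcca
Hist4h4: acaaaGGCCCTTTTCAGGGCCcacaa
Hist2h4: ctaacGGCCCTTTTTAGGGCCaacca
Hist1h1c: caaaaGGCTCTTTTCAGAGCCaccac
Hist1h1e: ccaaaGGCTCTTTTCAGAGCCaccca
Hist1h2ac: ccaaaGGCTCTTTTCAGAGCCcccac
Hist1h3b: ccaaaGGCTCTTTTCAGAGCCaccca
Hist1h3c: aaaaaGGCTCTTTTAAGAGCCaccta
All 9 have the loop between 2 arms that can pair, and the H4 genes differ from the rest in the middle of the arms. The pattern searched was GG, any 2 bases, CTTTT, any base, AG, any 2 bases and CC. Read on the sense strand of the annotated transcripts, it was present in 36 of the 52 genes (69.2%) and in 78 of 21951 protein-coding genes (0.355%). The 78 include these 36 and further coding histone genes outside the set. The GGCCC or GGTCC arm was found in H4 genes only, and the GGCTC arm in all genes of the other classes with a match. Of the 16 genes with no match, 12 have an annotated transcript under 600 bases long, and no match says only that these letters are not in the annotated transcript. At 2h against 0h the median log2 change was 0.39 over the 35 tested genes with a match and 0.36 over the 16 without.

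Upstream sequence was matched in RefSeq's promoter table (build GRCm38.p6) for 47 of the 52 genes. TATAAA, searched on both strands of the 300 bases around the start, was present in 63.8% of them and in 13.6% of 32851 promoters of all genes. CCAAT was present in 83% against 37.4%: it was found in every H1, H2A, H2B and H3 promoter and in 27.3% of the 11 H4 promoters. ATTTGCAT, the octamer that the factor encoded by Pou2f1 binds, was present in 21.3% against 1.74%, in 5 of 11 H2A and 5 of 12 H2B promoters and in no H1, H3 or H4 promoter. These matches describe the letters of the windows and show no binding. Many H2A and H2B genes stand head to head, and 9 such pairs lie in the set, with starts 176 to 302 bases apart. Because Hist1h2ac rose at 2h and its partner Hist1h2bc starts 251 bases away on the other strand, the Hist1h2ac window is shown (chr13:23683910-23684209, minus strand, 250 bases before the start to 50 after it). Capitals mark the 3 motifs on either strand, so ATTGG is CCAAT and ATGCAAAT is ATTTGCAT on the other strand.
Hist1h2ac: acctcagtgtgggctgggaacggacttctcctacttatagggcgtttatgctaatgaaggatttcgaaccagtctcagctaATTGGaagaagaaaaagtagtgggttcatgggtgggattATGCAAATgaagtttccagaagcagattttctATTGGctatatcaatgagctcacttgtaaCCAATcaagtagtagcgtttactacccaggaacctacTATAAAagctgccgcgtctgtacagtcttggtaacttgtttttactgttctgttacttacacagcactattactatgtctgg
The H4 gene with the largest rise at 2h, Hist1h4n, has TATAAA and neither of the other motifs in its window (chr13:21832148-21832447, minus strand).
Hist1h4n: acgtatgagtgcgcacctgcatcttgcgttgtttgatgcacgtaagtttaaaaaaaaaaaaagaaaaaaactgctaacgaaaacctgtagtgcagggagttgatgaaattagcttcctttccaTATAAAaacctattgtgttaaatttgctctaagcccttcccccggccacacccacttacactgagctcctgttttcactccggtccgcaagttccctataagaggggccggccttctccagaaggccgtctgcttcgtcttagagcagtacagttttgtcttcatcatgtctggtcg

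Copies of these genes are so alike that reads can be shared among them, which limits every value of a single gene. A gene's own 50-base words were those found in no other annotated gene, with genes that overlap its exons left out of the search. Words shared only with an overlapping gene thus count as its own. The share of own words ran from 6.08% in Hist1h3h to 100%, with a median of 55%. It was under 50% in 21 of the 52. The 9 coding histone genes with no count were 5 whose exons are wholly covered by another annotated gene and 4 with at most 11.3% of such words. In 14 of the 52, part of the exons (up to 56.2%, in Hist1h4b) overlaps another annotated gene, and the strand setting of the counting is not given in the sources used here, so those reads cannot be told apart.

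H1 genes held 32.9% of the set's counts, H4 genes 26.0%, H3 genes 19.3%, H2B genes 16.1% and H2A genes 5.74%. The classes are not equally easy to count. With overlapping genes left out as above, H1 genes have from 91.5% (Hist1h1c) to 100% of their 50-base words to themselves. For H2A genes the share runs from 9.27% (Hist1h2ah) to 88.4% (Hist1h2ac). Shared or lost reads may thus shape these shares and the order of levels per kilobase, which was not tested. Per kilobase of annotated exon, the highest level was that of Hist1h1a, an H1 linker histone gene, at 211 CPM per kb over the 16 libraries. Hist1h4d (H4) followed at 126, Hist1h1b (H1) at 121, Hist1h3e (H3) at 112 and Hist1h4h (H4) at 98.9 CPM per kb. Hist1h1a stood above the rest in each group mean, and Hist1h4d and Hist1h1b were too close to be ordered. Annotated lengths ran from 312 to 7425 bases, and the longest belongs to Hist1h1d, whose 15.1 CPM per kb depends on that length. The lowest were Hist2h2be at 0.858, Hist3h2ba at 1.12 and Hist1h1t, the testis-specific H1, at 1.2 CPM per kb.

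**Figure D1:**
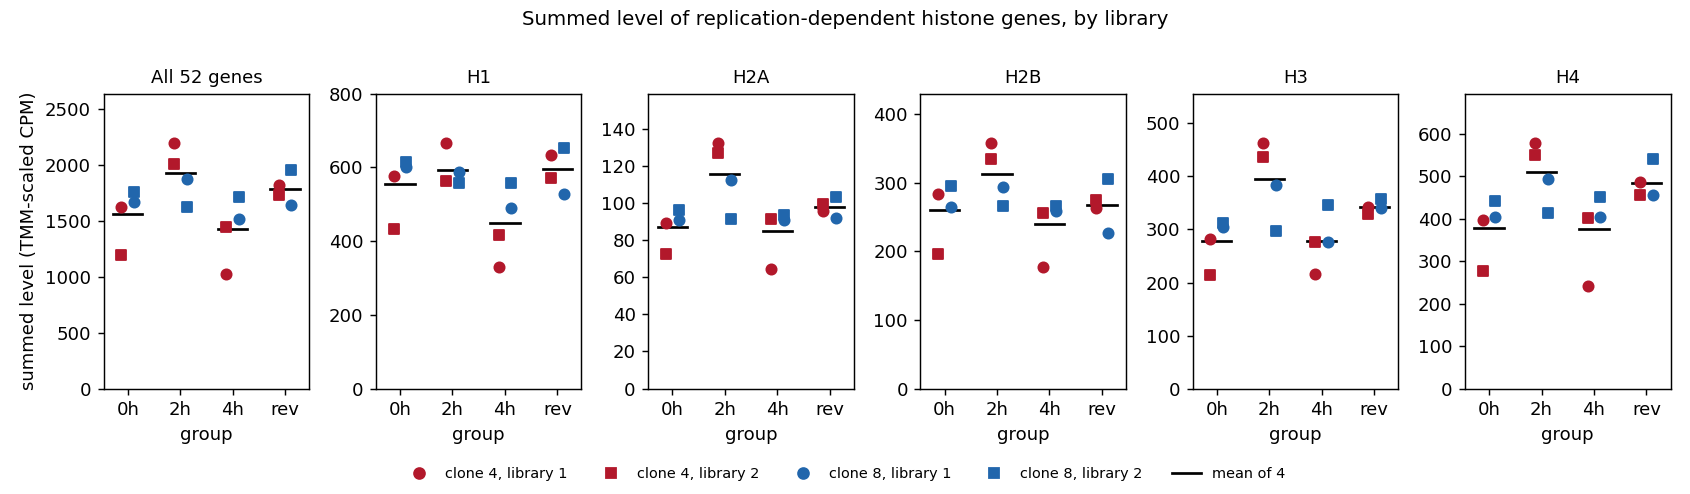
Summed TMM-scaled level (CPM) of all 52 histone genes and of each class in the 16 libraries, by group; points are libraries, coloured by clone and shaped by library number, and bars are means of 4. Clone 4 holds the 2 highest 2h libraries, at 2200 and 2012 CPM, and the lowest 0h and 4h libraries, at 1192 and 1029 CPM.

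Summed over the 52 genes, histone messages were highest at 2h and lowest at 4h. At 0h the clone 4 libraries were at 1625 and 1192 CPM and the clone 8 libraries at 1666 and 1757. At 2h they were at 2200 and 2012 in clone 4 and 1872 and 1625 in clone 8. The 4h libraries were at 1029 and 1442 in clone 4 and 1518 and 1717 in clone 8, and the rev libraries at 1821, 1730, 1641 and 1958. Group means were 1560 ± 252 CPM at 0h, 1927 ± 242 at 2h, 1427 ± 289 at 4h and 1788 ± 135 at rev (SD, n = 4), and the ranges of neighbouring groups overlap. Against its own 0h mean, clone 4 was 1.5-fold at 2h, 0.877-fold at 4h and 1.26-fold at rev, and clone 8 was 1.02-fold, 0.945-fold and 1.05-fold. These values depend on the scaling. Scaled to all counts, clone 4 was 1.3-fold, 0.765-fold and 1.19-fold and clone 8 was 1.32-fold, 1.02-fold and 0.793-fold, so that the 2h ratios of the clones were close and clone 8 changed direction at 4h and rev; its first rev library had 78.9% of its counts in the 8 most abundant features. Scaled to the counts outside those 8 features, clone 4 was 1.38-fold, 0.833-fold and 1.19-fold and clone 8 was 0.991-fold, 0.913-fold and 1.01-fold. The plot of summed levels shows clone 4 between 1029 and 2200 CPM over its 8 libraries and clone 8 between 1518 and 1958 CPM. In bulk RNA, fewer cells in S phase and less histone message per cell cannot be told apart. The 2 lowest libraries, the second 0h and the first 4h library of clone 4, were also the 2 lowest for the sum of other RNAs without a poly(A) tail, at 620 and 589 CPM against 919 to 2493 CPM in the other 14. The part of this in the results below was not tested.

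**Figure D2:**
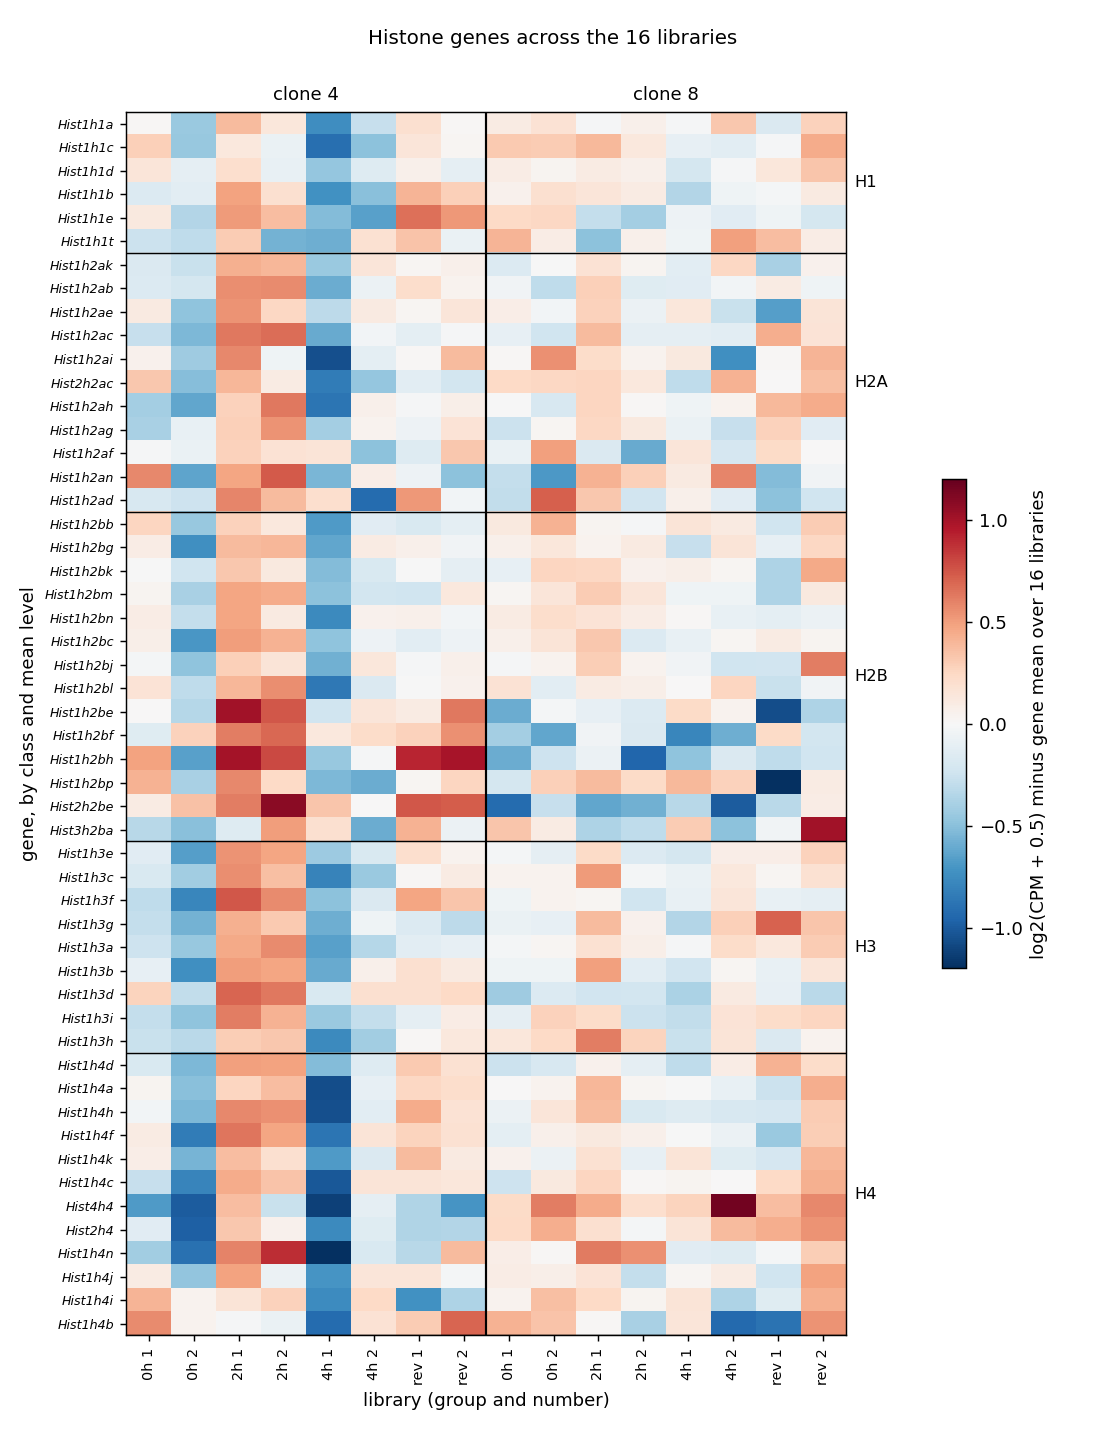
Level of each of the 52 histone genes in the 16 libraries as log2(CPM + 0.5) minus the gene's mean, by clone, group and library, with genes by class and mean level; colours saturate at 1.2 on either side. In clone 4 the 2 columns at 2h are red for most genes and the second 0h and first 4h columns are blue for most, and most cells of clone 8 are paler.

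At 2h against 0h, 14 of the 51 tested histone genes were higher and none was lower, at a Benjamini-Hochberg adjusted p under 0.05 in edgeR's quasi-likelihood test; over all 12742 genes tested, 9.49% were higher and 7.48% lower, a smaller share upwards than among the histone genes. Before adjustment, 24 passed at p under 0.05, all higher, and DESeq2 called 14 higher. Here and below, shares of all genes called are at the adjusted threshold in edgeR. They give no background for counts at an unadjusted p. The median log2 change was 0.38, against 0.00 over all genes, and 46 of the 51 were positive. The genes that rose were all core histone genes. Among H3 genes 5 of 9 rose (median 0.51), among H2A genes 5 of 11 (0.42), among H4 genes 3 of 12 (0.38) and among H2B genes 1 of 13 (0.36). None of the 6 H1 genes passed (median 0.02), with edgeR or DESeq2 or at an unadjusted p under 0.05; the difference between classes was not tested. The clones differed: in clone 4 alone 3 H1 genes (Hist1h1a, Hist1h1b and Hist1h1e) were higher (12.1% of all genes), with an H1 median of 0.46. In clone 8 alone 1 H1 gene (Hist1h1e) was lower (9% of all genes), with an H1 median of -0.08.

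Hist1h4n (chromosome 13, 21831767 to 21832196, minus strand), an H4 gene, changed most. It stood at 11.2 and 7.88 CPM in the 0h libraries of clone 4 and 16 and 15.2 CPM in those of clone 8. At 2h the same order gave 23.1, 28.3, 23.5 and 22.2 CPM, at 4h 5.87, 13.2, 13.7 and 13.5 CPM, and at rev 11.9, 19.7, 14.8 and 18.5 CPM. Every 2h library was above every library of the other groups. Its log2 change was 0.95 (SE 0.21, edgeR adjusted p 0.00444), with 1.44 in clone 4 alone and 0.54 in clone 8 alone, and only 14.4% of its 50-base words are its own.

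Hist1h2ac (chromosome 13, 23681467 to 23683948, minus strand), an H2A gene, was at 6.99, 5.76, 7.99 and 7.18 CPM at 0h and at 13.6, 14, 11.3 and 7.92 CPM at 2h, clone 4 first. The lowest 2h library, of clone 8, fell below the highest at 0h. The log2 change was 0.71 (SE 0.19, edgeR adjusted p 0.0146). Hist1h2ah, another H2A gene, went from 4.55 to 7.26 CPM over the 0h libraries to 7.36 to 11.6 CPM at 2h with no overlap, and its log2 change was 0.61 (edgeR adjusted p 0.0417).

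Of the H3 genes, Hist1h3b (chromosome 13, 23752267 to 23752886, plus strand) was at 22, 13.9, 22.8 and 22.7 CPM at 0h and 33.6, 32.9, 33.4 and 21.6 CPM at 2h. All but the second clone 8 library rose above the 0h range. Its log2 change was 0.57 (SE 0.17, edgeR adjusted p 0.0266), and that of Hist1h3g was 0.57 (edgeR adjusted p 0.0289). Hist1h3c and Hist1h3e also rose, by 0.50 and 0.51 (edgeR adjusted p 0.0259 and 0.0237). In 9 of the 51 genes every 2h library was above every 0h library, against 8.59% of all genes. In 1, Hist1h4b, every 2h library was below, against 7.68% of all genes.

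Hist1h4d (chromosome 13, 23581598 to 23582735, plus strand), the most abundant H4 gene per kilobase, was at 123, 96.6, 117 and 122 CPM at 0h. It was at 197, 196, 145 and 130 CPM at 2h, at 97.6, 126, 113 and 149 CPM at 4h and at 175, 159, 187 and 164 CPM at rev. Both 2h and rev lay wholly above 0h, with log2 changes of 0.54 and 0.57 (SE 0.14 for each; edgeR adjusted p 0.0113 and 0.0121). It has 89.8% of its 50-base words to itself. The head-to-head pairs moved the same way at 2h in 9 of 9 cases, with a median gap of 0.27 between partners. Most tested histone genes were positive at 2h, so the shared direction is not particular to the pairs. In 5 pairs 1 partner passed the test, and in none did both. The direction was shared in 9 of 9 pairs at 4h against 2h and at rev against 4h, and in 5 of 9 at 4h against 0h.

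The count at 2h rested on a few libraries. It was 2 without the second 0h library of clone 4 and 6 without the first, 3 without either 2h library of clone 4, and 6 without the first 2h library of clone 8. With library totals in place of TMM scaling it was 1, although the histone median then stood 0.35 above that of all genes, against 0.38 in the TMM fit. Over the 30 tested genes with at least 50% of their 50-base words to themselves, 5 rose.

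**Figure D3:**
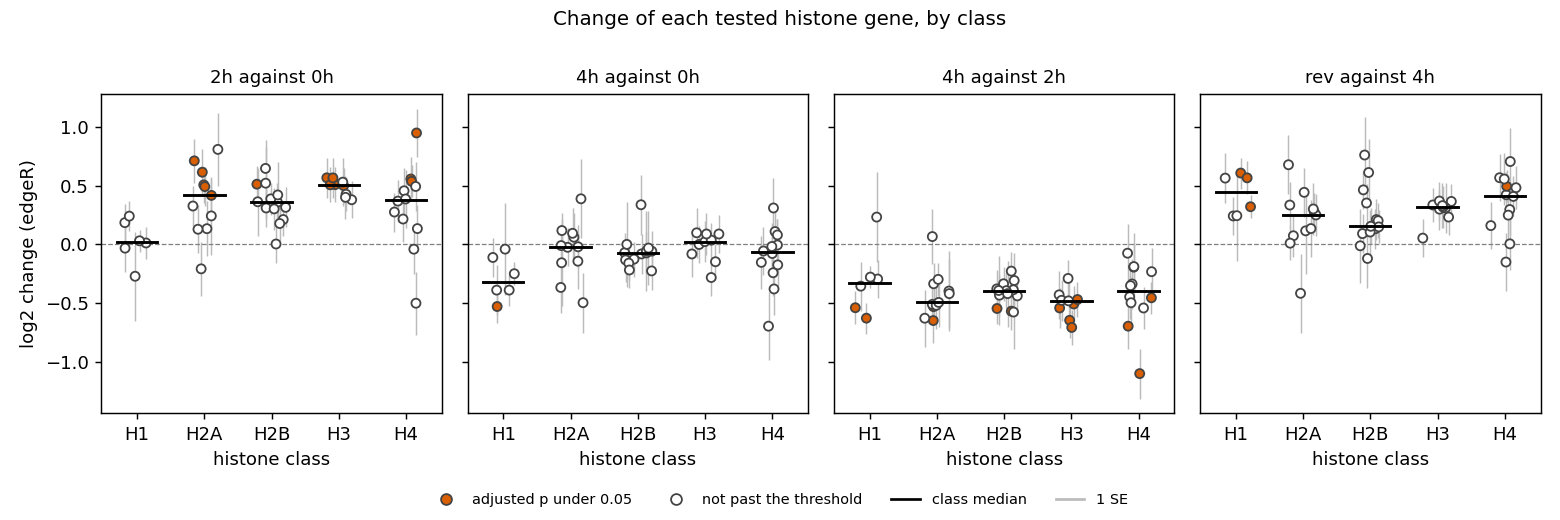
Fitted log2 change of each tested histone gene, by class, in 4 comparisons; points are genes with 1 SE, filled where the edgeR adjusted p is under 0.05, and bars are class medians. Core histone classes sit above 0 at 2h against 0h while the H1 median over both clones is near 0, and H1 has the lowest median at 4h against 0h.

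At 4h against 0h core histone genes had medians near 0, and 1 H1 gene was lower. Of 51 genes, 1 was lower and none higher with edgeR (5.56% and 7.35% of all genes), and DESeq2 called 2 lower; at an unadjusted p under 0.05, 4 were lower and none higher. The median log2 change was -0.07, and by class it was -0.32 for H1 and between -0.07 and 0.02 for the other classes. In no histone gene were the 2 groups apart in either direction, against 7.37% of all genes upwards and 6.18% downwards. The gene called was Hist1h1c (chromosome 13, 23738808 to 23740367, plus strand), which encodes an H1 linker histone. Its levels were 171, 102, 174 and 173 CPM at 0h, 153, 132, 183 and 152 CPM at 2h, and 74.4, 99, 130 and 128 CPM at 4h. Apart from the low 0h library of clone 4, each 4h library was below each 0h library. The log2 change was -0.53 (SE 0.14, edgeR adjusted p 0.0167), with -0.67 in clone 4 alone and -0.42 in clone 8 alone. The count was 0 without the first 0h or the first 4h library of clone 4, and 2 without any 1 of 4 other libraries: the first 2h library of clone 4, either 4h library of clone 8 or the first rev library of clone 8.

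Between 2h and 4h histone messages of every class fell in part. Of 51 genes 14 were lower at 4h and none higher with edgeR (6.36% and 5.78% of all genes), a larger share than among all genes; DESeq2 called 15 lower. The median was -0.43 and 49 of 51 were negative. H3 genes fell in 5 of 9 cases, H4 in 3 of 12, H1 in 2 of 6, H2A in 2 of 11 and H2B in 2 of 13. Of the 14 genes that rose at 2h, 9 were among these 14; the 2 comparisons share the 2h libraries. In 8 of the 51 genes every 4h library was below every 2h library, against 5.4% of all genes. In none was every 4h library above, against 5.72% of all genes.

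Hist1h4n had a log2 change of -1.10, with SE 0.21 and an edgeR adjusted p of 0.00283. Hist1h3h, an H3 gene, was at 16.1, 16.4, 20.3 and 15.8 CPM at 2h and 7.47, 9.65, 10.8 and 14.5 CPM at 4h, with no overlap. It fell by 0.71 (SE 0.15, edgeR adjusted p 0.00571), and it is the member with the fewest words of its own. Hist1h4h, an H4 gene, fell by 0.70 (edgeR adjusted p 0.0269), from between 39.3 and 66.8 CPM to between 21.3 and 40.9 CPM. Hist1h2ac and Hist1h3c fell by 0.65 each (edgeR adjusted p 0.0312 and 0.00957). Without the first 4h library of clone 4 the count was 4; it was 5 and 6 without the first and the second 2h library of clone 4, and 9 without the first 2h library of clone 8. With library totals it was 3.

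After the MEK inhibitor few histone genes were called higher than at 4h, namely 3 of the 6 H1 genes and 1 H4 gene. At rev against 4h, 4 of 51 genes were higher and none lower with edgeR (4.5% and 5.1% of all genes), and DESeq2 also called 4. At an unadjusted p under 0.05, 20 were higher, a count with no share of all genes beside it. The share of histone genes called was not far from that of all genes. The 4 called genes are among those with the most counts in the set, from 11878 (Hist1h1b) to 19005 (Hist1h1c). Whether this explains why H1 genes were called was not tested. The median was 0.30, with 0.44 for H1, 0.41 for H4, 0.32 for H3, 0.25 for H2A and 0.15 for H2B. The rev cells were also 2 h further in culture than the 4h cells, which cannot be told apart from the inhibitor. Summed histone levels had their highest means at 2h and rev. Both groups were taken 2 h after a compound was added, and both lay on the same side of the third principal component. The part of this timing or split in the histone changes was not tested and cannot be told apart from 4OHT and the inhibitor.

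Hist1h1b (chromosome 13, 21779883 to 21780625, minus strand), an H1 gene all of whose 50-base words are its own, was at 53.1, 62, 68.9 and 84.8 CPM at 4h and 117, 107, 86.6 and 94.8 CPM at rev. The groups do not overlap, and in clone 4 the step is larger. Its log2 change was 0.61 (SE 0.13, edgeR adjusted p 0.00599). Hist1h1c rose to 155, 142, 139 and 191 CPM at rev, above every 4h library, with a log2 change of 0.57 and an SE of 0.14 (edgeR adjusted p 0.0147). Hist1h4d rose by 0.49 (edgeR adjusted p 0.0281) and Hist1h1d, a further H1 gene, by 0.32 (edgeR adjusted p 0.0426). In 3 genes, against 4.29% of all genes, every rev library lay above every 4h library, and in none below (4.58% of all genes). The count was 1 without the first 4h library of clone 4 or the first rev library of clone 4, 2 without the second 4h library of clone 4, and 0 with library totals, where the histone median stood 0.30 above that of all genes as it did with TMM.

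At rev most histone genes could not be told from their level at 0h or at 2h. Of 51 genes 1, Hist1h4d, was higher at rev than at 0h and none was lower with edgeR (5.51% and 4.94% of all genes), and DESeq2 called 1; 8 were higher at an unadjusted p under 0.05, and the median was 0.19. In 3 genes (Hist1h3e, Hist1h4c and Hist1h4d) every rev library lay above every 0h library and in none below, against 6.19% and 5.68% of all genes. Without the first 4h library of clone 4 the count of called genes was 2. Against 2h no histone gene passed with edgeR or DESeq2, 4 were lower at an unadjusted p under 0.05, and the median was -0.15. Over all genes 0.769% were higher and 1.01% lower in this comparison. In 6 of the 51 genes, among them Hist1h4n and Hist1h3h, every rev library lay below every 2h library, against 3.35% of all genes. In none did every rev library lie above, against 3.01% of all genes.

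**Figure D4:**
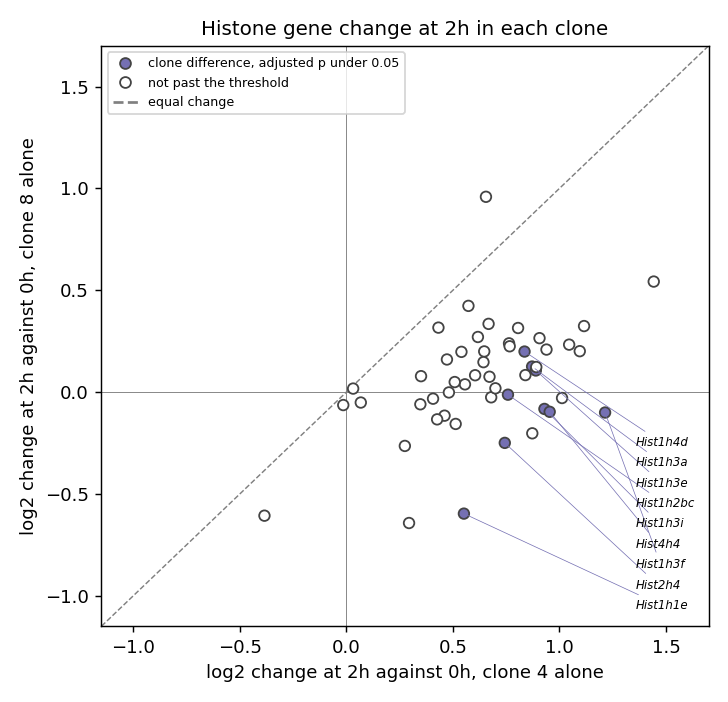
Log2 change at 2h against 0h of each histone gene fitted in clone 4 alone (horizontal axis) and in clone 8 alone (vertical axis); filled and named points are genes whose change differed between the clones at an edgeR adjusted p under 0.05, and the dashed line marks equal change. Most points lie to the right of 0 and near 0 on the vertical axis, below the line.

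The 2 clones differed in how far histone messages moved. In clone 4 alone 32 histone genes were higher at 2h than at 0h and none lower (12.1% and 8.61% of all genes), with a median of 0.66. In clone 8 alone 2 were higher and 1 lower (8.83% and 9% of all genes), with a median of 0.08. The difference itself was tested as an interaction term, the clone 8 change minus the clone 4 change: 9 of 51 genes had a smaller change in clone 8 and none a larger one (5.01% and 2.93% of all genes; edgeR), and DESeq2 called 7. The median difference was -0.58, and 50 of the 51 were negative. At 4h against 2h, 40 genes fell in clone 4 alone (14.6% of all genes) and 4 in clone 8 alone (5.07%), and none rose in either (12.5% and 4.58% of all genes). At rev against 4h, 20 rose in clone 4 alone and 2 in clone 8 alone (12.8% and 3.37% of all genes), and none fell (11.8% and 3.05%). At rev against 0h, 10 were higher and 1 lower in clone 4 alone (9.73% and 7.04% of all genes), and 3 were higher and 1 lower in clone 8 alone (5.27% and 4.63%). At 4h against 0h, 3 were lower in clone 4 alone and 2 in clone 8 alone (8.58% and 2.78% of all genes), and none was higher (10.4% and 3.5%). At rev against 2h, 3 were lower in clone 4 alone (1.8% of all genes, with 1.5% higher) and none changed in clone 8 alone (1.85% of all genes higher and 1.64% lower).

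The H1 gene Hist1h1e (chromosome 13, 23620629 to 23622558, minus strand) moved in opposite directions at 2h; 25.7% of its exons overlap other annotated genes, Hist1h2be among them. In clone 4 it was at 47.7 and 34.6 CPM at 0h, 62.9 and 57.2 at 2h, 30.7 and 27.9 at 4h and 69.9 and 63.5 at rev. In clone 8 it was at 52.2 and 52.5 CPM at 0h, 36.2 and 33.2 at 2h, 42.1 and 40.1 at 4h and 42.4 and 38.1 at rev. In clone 4 the 2h and rev libraries are the 4 highest, and in clone 8 the 2h libraries are the lowest. The difference at 2h was -1.16 (SE 0.17, edgeR adjusted p 3.26e-05). Hist1h3f, an H3 gene, showed a difference of -1.32 (SE 0.19, edgeR adjusted p 3.54e-05): in clone 4 it went from 27 and 19.2 CPM to 56.5 and 49.9, and in clone 8 from 32.3 and 34.5 CPM to 34 and 28.3. The other 7 were the H3 genes Hist1h3a, Hist1h3e and Hist1h3i, the H4 genes Hist1h4d, Hist2h4 and Hist4h4, and the H2B gene Hist1h2bc, with differences from -1.06 to -0.64.

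At rev against 4h, 7 genes had a smaller change in clone 8 and none a larger one (6.89% and 6.3% of all genes; edgeR), and DESeq2 called 4. Hist1h1e differed by -1.22 (SE 0.18, edgeR adjusted p 1.31e-05), and the others were Hist1h1a, Hist1h1b, Hist1h3c, Hist1h3f, Hist1h2be and Hist1h2bl. At 4h against 0h no gene differed between the clones with edgeR or DESeq2, and 2 did at an unadjusted p under 0.05, both with a higher value in clone 8 (2.03% of all genes were called higher and 3.69% lower). The median of the 2h difference moved with the scaling: with library totals it was 0.00 and no gene was called, while the median of all genes was 0.56. Relative to the median of all genes it was -0.56 under both scalings. The count at 2h was 2 without the second 0h library of clone 4, 4 without the second 0h library of clone 8, 3 without the second 2h library of clone 8, 14 without either 4h library of clone 4 and 21 without the first 0h library of clone 4. At rev it was 1 without the first 4h library of clone 4, 13 without the second, and 4 without the second rev library of clone 4 or the first of clone 8.

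**Figure D5:**
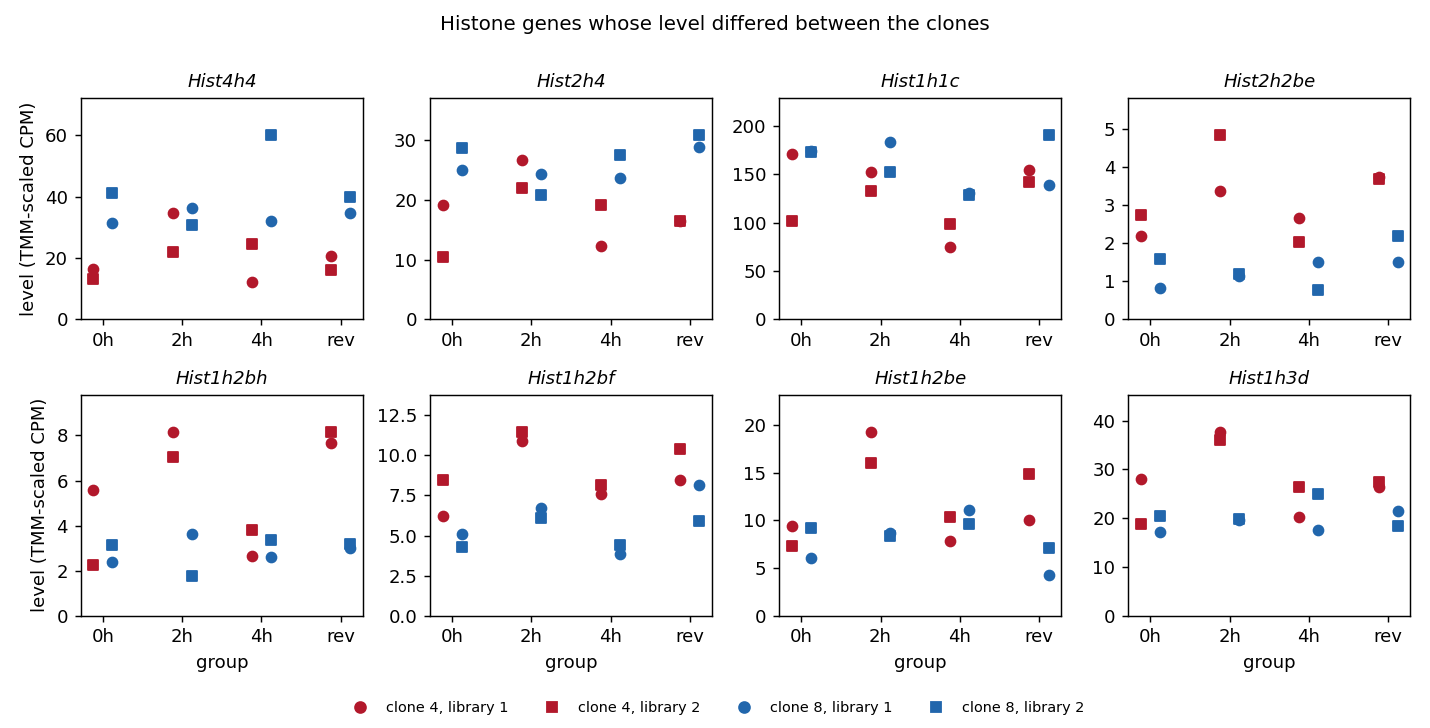
TMM-scaled level (CPM) of the 8 histone genes called between the clones, in each library by group, coloured by clone and shaped by library number. Hist4h4 lies higher in clone 8 and Hist2h2be in clone 4 in every group mean.

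Averaged over the groups, 3 histone genes were higher and 5 lower in clone 8 than in clone 4 (edgeR), smaller shares than the 17.1% and 17.8% of all genes. Hist4h4 (chromosome 6, 136801553 to 136804415, minus strand), an H4 gene outside the main cluster, was at 16.4, 13, 34.6, 22, 12, 24.6, 20.7 and 16.1 CPM in clone 4 in the order 0h, 2h, 4h and rev. In clone 8 it was at 31.2, 41.1, 36.4, 30.7, 32.2, 60, 34.5 and 39.9 CPM. Only the first 2h library of clone 4 reached the clone 8 range. The log2 difference was 0.95 (SE 0.18, edgeR adjusted p 0.000286). Hist2h2be (chromosome 3, 96221119 to 96223738, plus strand), an H2B gene of the Hist2 cluster, ran from 2.03 to 4.84 CPM in clone 4 and from 0.766 to 2.17 CPM in clone 8, where 1 library reached the clone 4 range. Its difference was -1.26 (SE 0.20, edgeR adjusted p 6.32e-05), with 282 counts in all. Hist2h4 (0.57) and Hist1h1c (0.33) were the others higher in clone 8, and Hist1h2bh (-0.94), Hist1h2bf (-0.72), Hist1h2be (-0.54) and Hist1h3d (-0.47) the others lower. Annotated exons add up to more than 1000 bases in 4 of the 5 lower and in all 3 higher genes, and in 13 of the 52.

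Among 20 tested genes for histone message processing and transcription, 3 were higher and 3 lower at 2h against 0h with edgeR. Over all genes 9.49% were higher and 7.48% lower. The median of the 20 was -0.01. The 3 higher were the genes of the stem-loop binding protein (Slbp), of the S-phase coactivator (Npat) and of the octamer factor (Pou2f1). Slbp was at 20.6, 19.6, 23.3 and 24 CPM at 0h, 35.9, 43, 30 and 32.1 at 2h, 24.3, 19.3, 24.7 and 30 at 4h, and 30, 34, 27.6 and 30.4 at rev. Every 2h and rev library was above every 0h library. It rose by 0.67 at 2h (SE 0.13, edgeR adjusted p 0.00181), fell by 0.50 from 2h to 4h (edgeR adjusted p 0.0177) and was 0.48 above 0h at rev (edgeR adjusted p 0.0247). Npat rose by 0.44 at 2h (edgeR adjusted p 0.0231) and fell by 0.47 from 2h to 4h (edgeR adjusted p 0.0237); its change at 2h was 0.73 in clone 4 alone and 0.15 in clone 8 alone. The genes lower at 2h were Lsm10, a subunit of the U7 particle (-1.05), Mif4gd, an SLBP partner (-0.55), and Ncbp2, of the cap-binding complex (-0.37). From 2h to 4h 4 of the 20 rose and 3 fell (5.78% and 6.36% of all genes), and at 4h against 0h 2 rose (7.35%). At rev against 4h 3 fell (5.1% of all genes), and at rev against 0h 1 rose and 2 fell (5.51% and 4.94%).

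Of 39 tested genes of DNA replication and S phase, 2 were higher and 4 lower at 2h against 0h (9.49% and 7.48% of all genes). Their median was 0.01. At 4h against 0h 1 was higher (Pcna) and 1 lower (Rrm2), against 7.35% and 5.56% of all genes. Ccne2, the cyclin E2 gene, was at 6.39 to 7.43 CPM at 0h and 10.6 to 11.7 CPM at 2h, a log2 change of 0.65 (edgeR adjusted p 0.00532). This was the largest rise of the 39, whose log2 changes at 2h against 0h ran from -0.53 to 0.65, so it does not stand for the list. Of 20 genes of G2 and mitosis, 3 were higher and 2 lower at 2h (9.49% and 7.48% of all genes). From 2h to 4h 6 were lower (6.36% of all genes), among them Ccnb1, the cyclin B1 gene (-0.40, edgeR adjusted p 0.00163).

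Of 11 tested genes of histone variants, listed as replication-independent, 1 was higher at 2h (9.49% of all genes). This was H3f3b, which encodes H3.3, by 0.50 (edgeR adjusted p 0.00188). It was 0.42 above 0h at 4h and 0.63 above at rev (edgeR adjusted p 0.00725 and 0.000514). From 2h to 4h the H2A.X gene H2afx, which also makes a stem-loop message without a poly(A) tail, fell by 0.30 (edgeR adjusted p 0.0331), and from 4h to rev it rose by 0.28 (edgeR adjusted p 0.0477). Of 12 histone chaperone genes 1, Rbbp7, was higher at 2h (0.57, edgeR adjusted p 5.69e-05), against 9.49% of all genes. Of 31 tested other RNAs without a poly(A) tail, 1 was higher and 5 lower at 2h against 0h (9.49% and 7.48% of all genes). Their median was -0.22, with 0.00 in clone 4 alone and -0.35 in clone 8 alone. At 4h against 2h it was 0.40, with 0.10 in clone 4 alone and 0.74 in clone 8 alone, and at rev it was 0.03 against 4h and 0.32 against 0h. Their summed level had a mean of 945 CPM at 0h and 1185 CPM at 2h. Among cytosolic ribosomal protein genes 0 of 81 were higher at 2h and 2 lower with edgeR (9.49% and 7.48% of all genes). The median was 0.05, and before adjustment 7 were higher and 3 lower at p under 0.05.

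All 4 markers of two-cell-like cells, a rare state in pluripotent cultures, were also higher at 2h against 0h in the fit over both clones. They were Zscan4c, Zscan4d, Zscan4f and Usp17la, and 9.49% of all genes were higher. The summed level of the 4 markers ran from 1.06 to 7.57 CPM at 0h, 0.691 to 29.4 at 2h, 1.02 to 11.8 at 4h and 0.679 to 24.7 at rev. None of the 4 was at 0 in every library. They were higher in clone 8, where histone genes moved less. In clone 4 each stayed at or below 0.648 CPM in all 8 libraries. Their part in the clone 8 values was not tested.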

How the data were processed

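Ribosomal RNA was removed from the total RNA first, per the labels' protocols, and the submitters' processing notes name bcl2fastq 2.19.1, STAR 2.5.3a and the mouse build mm10. The authors deposited raw counts per Ensembl gene, 1 column per library; the counting program, annotation and strand setting are not given in the sources used here. Symbols, coordinates (1-based, GRCm38) and transcripts came from GENCODE M21, which matched 52403 of 52636 identifiers by gene ID. Counts were tested with edgeR 4.0.16 (R 4.3.3): filterByExpr by group (minimum count 10), TMM scaling, the quasi-likelihood test on group and clone over all 16 libraries, and Benjamini-Hochberg adjustment over 12742 genes, with calls at an adjusted p under 0.05. SEs are absolute log2 changes over the root of the F statistic. CPM is TMM-scaled and relative to the kept genes. Clone differences were interaction terms, and DESeq2 1.42.0 was an alternative. Of the 52 genes Hist3h2ba was below the filter, and 50 could be fitted in each clone alone. The 2 libraries of each clone in a group were not copies of each other (chi-square over its degrees of freedom 1.32 to 4.49). This cannot tell whether they came from separate cultures. The tests treated each library as separate. Floors of 3 counts cover counting error only. The procedure was tested on simulated data.

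The set and the gene lists were chosen with earlier results of these data known. Members were named by rule: up to 5 called genes with the largest change in each comparison between groups, the 5 highest levels per kilobase, the 2 largest clone differences and the genes next to the count limit. Slbp, Npat, Hist1h1e, Hist1h3e and Hist1h3f, Ccne2, Ccnb1 and the remaining called genes that are named were chosen after their values were seen. Alternatives were other scalings, tests, filters, thresholds, covariates, offsets and left-out libraries.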

Additional observations from a re-analysis of the deposited data

Results flagged for a closer look

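In groups of 4 libraries, 9 of 88 sets of values had 1 library far from the rest, by a gap that took more of the range than Dixon's 95% critical value; chance alone gives this in about 1 in 20 groups. At 4h the lone library was in every case the first of clone 4, which was low for Hist1h4n (0.94 of the range), Hist1h4h (0.906), Hist1h2ah (0.85), the summed H2A level (0.896) and the summed H2B level (0.875). At 0h it was the second library of clone 4, low for Hist1h1c (0.953) and Hist1h3b (0.904). At 2h the second library of clone 8 was low for Hist1h3b (0.943) and the first of clone 8 high for Hist1h3h (0.864).

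Changes differed between the clones by the interaction test, and each difference is the clone 8 change minus the clone 4 change on the log2 scale. At 2h against 0h they were -1.32 for Hist1h3f, -1.16 for Hist1h1e, -1.06 for Hist4h4, -1.02 for Hist1h3i, -1.0 for Hist2h4, -0.79 for Hist1h3e, -0.78 for Hist1h2bc, -0.75 for Hist1h3a and -0.64 for Hist1h4d. At rev against 4h they were -1.26 for Hist1h2be, -1.22 for Hist1h1e, -0.88 for Hist1h3f, -0.85 for Hist1h2bl, -0.72 for Hist1h1b, -0.69 for Hist1h1a and -0.61 for Hist1h3c.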

How the results depend on the processing

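Signs were checked for the named genes in comparisons where the reported fit called them. Of these recomputed values, 702 kept their direction and side of the threshold, and 158 kept the direction but lost the call. Genes not called in the reported fit could go either way, as Hist1h1e at 2h against 0h was higher in clone 4 alone and lower in clone 8 alone. Counts of histone genes called are given for 2h over 0h, 4h over 0h, 4h over 2h, rev over 4h, rev over 0h and rev over 2h, in this order, where the reported counts were 14, 1, 14, 4, 1 and 0. They were 1, 0, 3, 0, 0 and 0 with library totals in place of TMM, 24, 4, 30, 15, 5 and 2 with no filter on low counts, and 3, 0, 2, 1, 0 and 0 with no clone covariate. They were 14, 2, 15, 4, 1 and 0 with DESeq2 and 18, 2, 27, 4, 1 and 0 with a GC and exon length offset. In clone 4 alone they were 32, 3, 40, 20, 11 and 3, and in clone 8 alone 3, 2, 4, 2, 4 and 0. At an adjusted p under 0.01 they were 1, 0, 4, 1, 0 and 0, with an absolute log2 change of at least 1 also required 0, 0, 1, 0, 0 and 0, and among genes with at least 50% unique words 5, 1, 8, 4, 1 and 0. Between the clones the 8 genes became 5 with library totals, 16 with no filter and 1 with a log2 change of at least 1.

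The clone difference at 2h, 9 genes, became 0 with library totals, 15 with no filter, 15 with the GC and length offset and 5 with a log2 difference of at least 1. That at rev against 4h, 7 genes, became 16, 14, 9 and 2 under the same settings, 4 with DESeq2 and 3 at an adjusted p under 0.01. The summed level at rev was 0.975 of the 0h mean when scaled to all counts, against 1.146 with TMM. The cause of these shifts was not tested.

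Leaving out 1 library at a time gave 2 to 20 genes at 2h against 0h and 0 to 2 at 4h against 0h. It gave 4 to 19 at 4h against 2h. For rev it gave 1 to 6 genes against 4h, 1 to 2 against 0h and 0 to 0 against 2h, and 7 to 11 between clones. It gave 2 to 21 for the clone difference at 2h, 0 to 1 at 4h against 0h and 1 to 13 at rev against 4h.

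No pairing by library number was seen: deviations of same-numbered libraries of a clone correlated at -0.0106 on average (from -0.133 to 0.119 over 12 pairs of groups, 1 above 0.1). With 2 libraries per clone and group and with counting noise in the deviations, this cannot exclude a shared preparation. With the replicate number as a block the counts were 11, 1, 9, 2, 1 and 0, and 9, 0 and 6 for the 3 clone differences. With block and GC and length offset together they were 16, 1, 21, 3, 1 and 1, and 14, 0 and 7. Depth set a floor of 0.21 to 0.908 CPM per library, so genes such as Hist2h2be rest on few counts.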
